A study of Mus musculus with 4 samples.

Results

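Long noncoding RNA (lncRNA) promoters that stand away from coding genes were examined in ATAC-seq peak lists of neonatal mouse hippocampus. The members were the autosomal GENCODE genes of type lincRNA (between coding genes) or antisense (transcribed opposite to another gene) whose transcription start sites (TSSs) all lay over 5 kb from every protein-coding TSS. They numbered 6246 genes, 4575 lincRNA and 1671 antisense, out of 8122 autosomal genes of these types and 51229 autosomal genes in all, and no autosomal gene of that annotation had the third type named by the rule, lncRNA. Each promoter reached 2 kb up- and downstream of a TSS, and a peak was assigned to it if the summit, the point of greatest depth, fell inside. The members had 7103 distinct TSSs, and 2432 of the 115311 autosomal peaks in the 4 lists had their summit at one of these promoters.

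The libraries came from P0 (postnatal day 0) hippocampi, 2 of cKO mice (replicates 1 and 2, written cKO1 and cKO2) and 2 of Ctrl mice (Ctrl1 and Ctrl2). cKO mice carried Kdm2b Emx1-delta-CxxC, in which Emx1-Cre, active in the dorsal telencephalon, removes the exon for the CxxC zinc finger of KDM2B. Ctrl mice were Kdm2b fl/+ or Kdm2b fl/fl, and the labels do not say which library had which genotype, nor whether 1 animal or several went into it. Peak names in the Ctrl1 list carry the tag Kf-+ and those in the Ctrl2 list Kf-f, which no label explains, and a part of the Ctrl genotype in the differences between these libraries was not tested. Whole hippocampus also holds cells outside the Emx1 lineage, which keep the intact gene, and the source label names neural progenitor cells although titles and protocol name hippocampus.

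A lncRNA is a transcript without a long reading frame that is usually made by RNA polymerase II, spliced and polyadenylated as an mRNA is. Some act in the nucleus, as scaffolds of nuclear bodies (Neat1) or as silencers of imprinted neighbours (Kcnq1ot1, Airn), some are hosts of microRNAs, and for most no function is known. Promoters of coding genes often lie in CpG islands (CGIs), stretches rich in the CpG dinucleotide that the CxxC finger of KDM2B binds. ATAC-seq reports open chromatin by the places where Tn5 transposase inserts adapters.

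The 4 lists differed widely. They held 45082 autosomal peaks in Ctrl1, 6457 in Ctrl2, 20643 in cKO1 and 43129 in cKO2, at a mean genome depth of 1.62, 3.46, 2.07 and 1.81 fragments per base, so the list from the deepest library, Ctrl2, was the shortest. Repeats made up at least 50% of the bases in 57.6% of its peaks, against 4.88 to 13.4% in the others. Of 14 genes of hippocampus and dorsal telencephalon, 12, 0, 9 and 13 had a promoter peak in Ctrl1, Ctrl2, cKO1 and cKO2. Of 8 genes of other tissues, Apoa1 had a peak in 2 libraries, Ctrl1 and cKO2, and the other 7 had none. Of 10 genes of interneurons, glia, vessels and microglia, 4, 0, 1 and 2 had one. The tissue markers were thus absent from the list of Ctrl2, and each of the 7 genotype differences tested below is given with and without that library. The promoter of Kdm2b had a peak in the other 3 libraries, which does not test the deletion. Values given in fours below run from Ctrl1 and Ctrl2 to cKO1 and cKO2.

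Sequences of 8 promoters show what the peaks cover. Each is the 200 bp centred on the summit of the library with the greatest scaled depth, read from GRCm38 (mm10) on the strand of the gene, 5′ to 3′, with every CpG in capitals. Of the members with a peak in all 4 lists, 4932412D23Rik has the highest mean promoter percentile (a rank among coding promoters, defined further on) outside a repeated ribosomal unit, and Gm13569 has the highest of those without a CGI. Zfhx2os, Malat1, Kcnq1ot1 and Mir17hg stand for neural, nuclear, imprinted and microRNA host lncRNAs. C230057A21Rik had a peak in both cKO lists alone and Gm15963 in both Ctrl lists alone.
4932412D23Rik (chr16:42875507-42875706, minus strand): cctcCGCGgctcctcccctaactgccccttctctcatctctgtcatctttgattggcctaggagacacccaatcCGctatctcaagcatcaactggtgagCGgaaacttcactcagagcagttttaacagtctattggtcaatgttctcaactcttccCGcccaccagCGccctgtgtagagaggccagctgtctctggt
Gm13569 (chr2:62807518-62807717, plus strand): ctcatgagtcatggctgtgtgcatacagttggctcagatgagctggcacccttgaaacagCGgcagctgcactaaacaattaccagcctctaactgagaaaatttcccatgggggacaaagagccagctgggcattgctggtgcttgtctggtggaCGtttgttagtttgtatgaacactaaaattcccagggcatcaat
Zfhx2os (chr14:55053733-55053932, plus strand): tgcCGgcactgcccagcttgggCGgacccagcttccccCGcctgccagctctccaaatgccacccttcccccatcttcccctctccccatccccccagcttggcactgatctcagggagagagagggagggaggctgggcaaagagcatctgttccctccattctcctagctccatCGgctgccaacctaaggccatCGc
Malat1 (chr19:5803522-5803721, minus strand): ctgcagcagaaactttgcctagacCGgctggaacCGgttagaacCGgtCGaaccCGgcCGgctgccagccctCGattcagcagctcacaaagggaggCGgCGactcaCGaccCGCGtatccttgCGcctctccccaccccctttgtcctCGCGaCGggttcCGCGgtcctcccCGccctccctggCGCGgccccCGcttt
Kcnq1ot1 (chr7:143296521-143296720, minus strand): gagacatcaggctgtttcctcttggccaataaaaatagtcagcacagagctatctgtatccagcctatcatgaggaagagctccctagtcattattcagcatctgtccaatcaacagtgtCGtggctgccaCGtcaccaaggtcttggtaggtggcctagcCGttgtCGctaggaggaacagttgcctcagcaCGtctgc
Mir17hg (chr14:115042110-115042309, plus strand): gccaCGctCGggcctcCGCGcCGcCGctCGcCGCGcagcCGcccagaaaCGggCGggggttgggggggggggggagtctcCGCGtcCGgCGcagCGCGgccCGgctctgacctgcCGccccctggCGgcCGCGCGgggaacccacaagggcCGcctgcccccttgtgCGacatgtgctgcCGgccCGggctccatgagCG
C230057A21Rik (chr3:8736288-8736487, minus strand): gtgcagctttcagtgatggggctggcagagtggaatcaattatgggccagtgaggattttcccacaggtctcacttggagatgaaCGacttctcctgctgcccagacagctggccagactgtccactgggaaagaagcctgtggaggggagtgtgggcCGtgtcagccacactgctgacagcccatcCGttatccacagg
Gm15963 (chr10:93727300-93727499, minus strand): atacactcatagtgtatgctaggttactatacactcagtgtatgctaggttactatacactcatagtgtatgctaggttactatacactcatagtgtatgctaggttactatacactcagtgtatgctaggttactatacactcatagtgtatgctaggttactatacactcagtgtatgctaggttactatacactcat

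The windows differ widely in composition. Mir17hg held 29 CpG and 80.5% GC, and Malat1 held 22 CpG and 68% GC. 4932412D23Rik, although it overlaps a computed CGI within 2 kb, held 6 CpG at its summit, and Kcnq1ot1 held 5. Gm13569 and C230057A21Rik held 2 and 3, and neither has a CGI at its promoter. Gm15963 held 0 CpG and 36.5% GC, and a shift by 54 bp leaves 87.0% of its bases the same, so it is a tandem array that the reference does not mask as a repeat. The highest share for any shift between 5 and 100 bp was 32.4 to 47.1% in the other 7 windows. The GC box (GGGCGG, either strand) occurred in the windows of 4932412D23Rik, Zfhx2os, Malat1 and Mir17hg. The E-box CAGATG, a sequence that proneural basic helix-loop-helix factors are known to bind, occurred on either strand in those of Gm13569, Zfhx2os and Kcnq1ot1.

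Few lncRNA promoters were open by this measure. A peak was present at 997 of 6246 promoters in Ctrl1 (16%, 95% Wilson interval 15.1 to 16.9%), 62 in Ctrl2 (0.993%, 0.775 to 1.27%), 422 in cKO1 (6.76%, 6.16 to 7.41%) and 887 in cKO2 (14.2%, 13.4 to 15.1%). Intervals here cover counting error only. Among the 20807 autosomal protein-coding genes the shares were 59.1, 8.64, 41.3 and 57.0%. A gene with several TSSs had several windows, and the number of TSSs per gene was not equalised between the classes. The member share was lower in 4 of 4 libraries, by 32.0 ± 16.7 percentage points (mean ± SD, n = 4). An exact two-sided sign-flip permutation test gave p = 0.13, the smallest that 4 libraries allow (adjusted p = 0.146 over 7 such tests). In lists of equal length, the top 7037 peaks of each library, the difference was −18.6 percentage points.

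**Figure D1:**
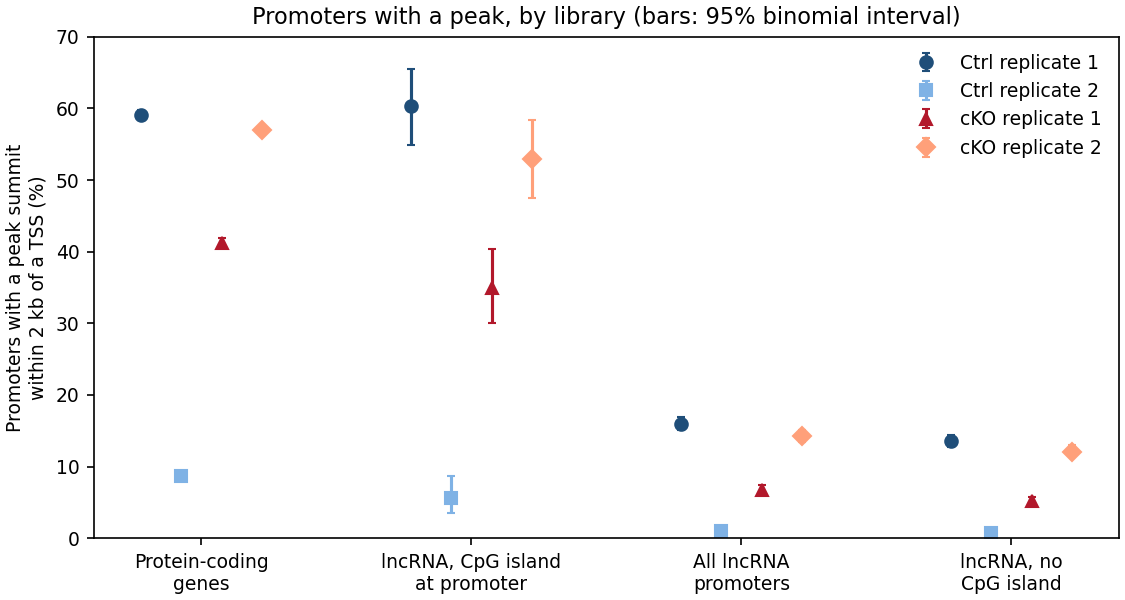
Share of promoters with a peak summit within 2 kb of a TSS (y axis, %) for protein-coding genes, lncRNAs with a CGI at the promoter, all lncRNAs of the rule, and lncRNAs without a CGI (x axis), with 1 point per library and bars for the 95% Wilson interval. lncRNAs with a CGI reached 60.4% in Ctrl1, where all protein-coding genes, with or without a CGI, reached 59.1% and lncRNAs without a CGI 13.5%.

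The CGI divided the members more than any other feature counted. Only 323 members (5.17%) had a computed CGI overlapping a promoter, and a peak was present at 195 of them in Ctrl1 (60.4%), 18 in Ctrl2 (5.57%), 113 in cKO1 (35.0%) and 171 in cKO2 (52.9%). Of the 5923 members without one the shares were 13.5, 0.743, 5.22 and 12.1%. The CGI members were higher in 4 of 4 libraries, by 30.6 ± 18.6 percentage points (mean ± SD, n = 4, exact sign-flip permutation p = 0.13, the smallest possible, adjusted p = 0.146). In equal-length lists the difference was 11.7 percentage points. Set beside all protein-coding genes, with or without a CGI, the interval of the CGI members (54.9 to 65.6% in Ctrl1 and 47.5 to 58.3% in cKO2) included the coding share in these 2 libraries. It lay below the coding share in cKO1 (30.0 to 40.3%) and just below it in Ctrl2 (3.55 to 8.64%). Coding genes with a CGI at the promoter were not counted apart, so this sets unlike classes side by side. A peak in at least 1 list was found for 203 of the 323 CGI members and for 964 of the others. The remaining 120 CGI members had none.

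The peaks themselves were mostly outside CGIs. Of the peaks at member promoters, 16.5, 25.4, 23.2 and 16.4% overlapped a CGI, against 80.4, 88.4, 86.6 and 81.1% at protein-coding promoters. The difference was −63.8 ± 0.764 percentage points and lay between −64.7 and −63.0 in the 4 libraries (exact sign-flip permutation p = 0.13, adjusted p = 0.146).

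Other features moved the share less. Of lincRNAs, 19.2% had a peak in at least 1 list, and of antisense genes 17.3%. Genes named by a RIKEN clone reached 21.1% (247 of 1173), those named by a clone or sequence accession 19.4% (93 of 480) and those with a predicted Gm number 17.6% (766 of 4352). All remaining names, which include gene symbols but also the accession AY036118, reached 25.3% (61 of 241). A CGI was present at 17% of the genes with these remaining names and at 4.17 to 5.63% of the other name classes, so the naming and the CGI were not independent. The 617 members whose promoter also held a TSS of another gene had a peak more often (27.9%) than the 5629 that did not (17.7%), and 16.2% of the former had a CGI against 3.96% of the latter. By distance to the nearest coding TSS there was no steady order. In Ctrl1 a peak was present at 17% of members within 10 kb, 16.2% at 10 to 50 kb, 17.5% at 50 to 200 kb and 12.3% from 200 kb on, and in cKO1 at 6.65, 6.69, 7.1 and 6.32%. Within CGI members the Ctrl1 share was 46.8% in the nearest and 68.8% in the farthest class (62 and 16 genes), and within the others 12.9 and 11.6%. Members without a CGI went the other way in cKO1 (3.34 and 5.91%), but not in Ctrl2 (1.11 and 0.821%) or cKO2 (10.7 and 10.3%). These shares are counts over genes of the same 4 libraries and carry no test. Of the genes just inside the 5 kb threshold (up to 6 kb, 114 genes), 16, 0, 7 and 15 had a peak, and of those just outside (4 to 5 kb, 136 genes) 20, 1, 9 and 18.

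Where a lncRNA promoter had a peak, the median depth was below that of coding promoters in each library, by little in Ctrl2. Scaled depth is the number of fragments at the summit, recovered from the deposited fold and p-value, relative to the average depth over the genome in the same library. Its median over members was 11.1, 5.48, 8.20 and 10.5, and over protein-coding genes 23.4, 6.06, 11.6 and 20.5. The difference was −6.56 ± 5.5 (n = 4, lower in 4 of 4 libraries, exact sign-flip permutation p = 0.13, adjusted p = 0.146) and was smallest, −0.577, in Ctrl2. In that library it was 0.577 with peaks limited to a −log10 q of at least 5 and 0 without repeat-masked peaks, so the difference then held in 3 of 4 libraries (exact sign-flip permutation p = 0.25 in both). In equal-length lists the mean difference was −3.0. CGI members lay between, with medians of 16, 6.50, 9.16 and 16.1, except in Ctrl2 where theirs was above the coding median. The median member peak rested on 17 to 19 fragments. Width did not separate the classes beyond the spread between libraries, with medians of 463, 463, 385 and 454 bp for members and 676, 342, 478 and 637 bp for coding genes (mean difference −92 ± 151 bp, exact sign-flip permutation p = 0.375, adjusted p = 0.375). Only in Ctrl2 were the member peaks wider, and without that library the mean difference was −163 bp.

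**Figure D2:**
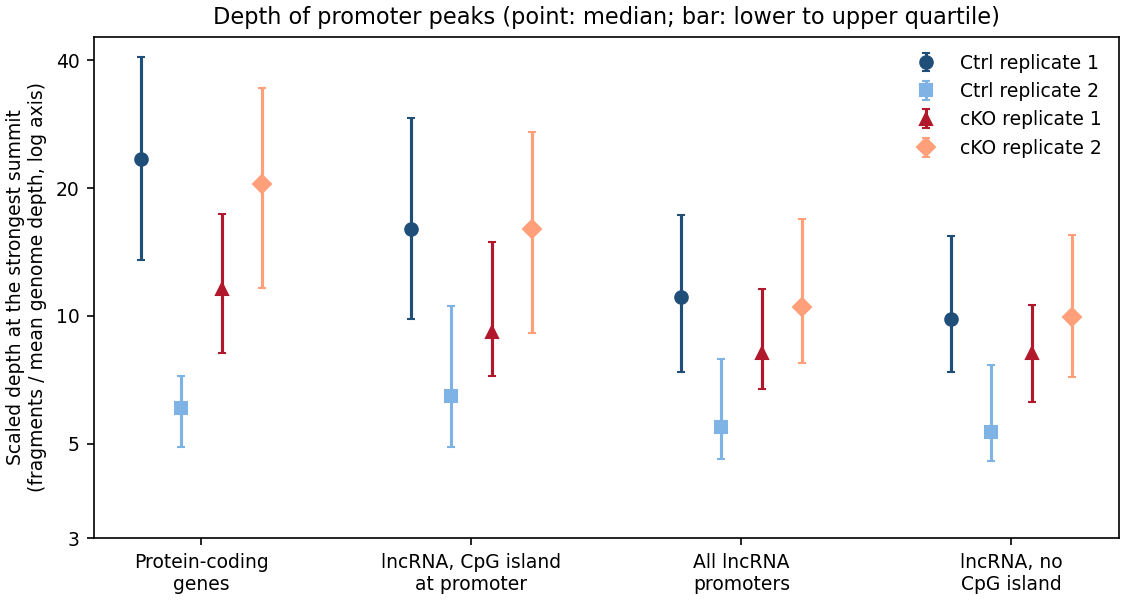
Scaled depth at the strongest promoter summit (y axis, fragments over mean genome depth, log axis) for 4 classes of promoter (x axis), with 1 point per library at the median and a bar from the lower to the upper quartile. In Ctrl1 the median falls from 23.4 for coding genes to 16 for lncRNAs with a CGI and 9.86 for those without.

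Summits also lay further from the annotated start. The median distance from the strongest summit to the nearest TSS of the gene was 453, 747, 413.5 and 458 bp for members and 91, 141, 97 and 96 bp for coding genes, a difference of 412 ± 131 bp (n = 4, larger in 4 of 4 libraries, exact sign-flip permutation p = 0.13, adjusted p = 0.146). Its size depended on the window, with 128 bp for promoters of 1 kb, and was 271.5 bp in equal-length lists. A gene with more annotated TSSs has more chances of a near one, and the classes were not matched for this number. Within 500 bp of a TSS lay 52.7, 43.5, 55 and 51.4% of the member summits, against 88.8, 88.8, 91.0 and 88.1% of the coding ones. CGI members stood closer, with 68.2, 61.1, 69.9 and 70.2% within 500 bp. The members thus include promoters with a summit at the start and others in which a peak lies in the window without being centred on the annotated TSS.

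**Figure D3:**
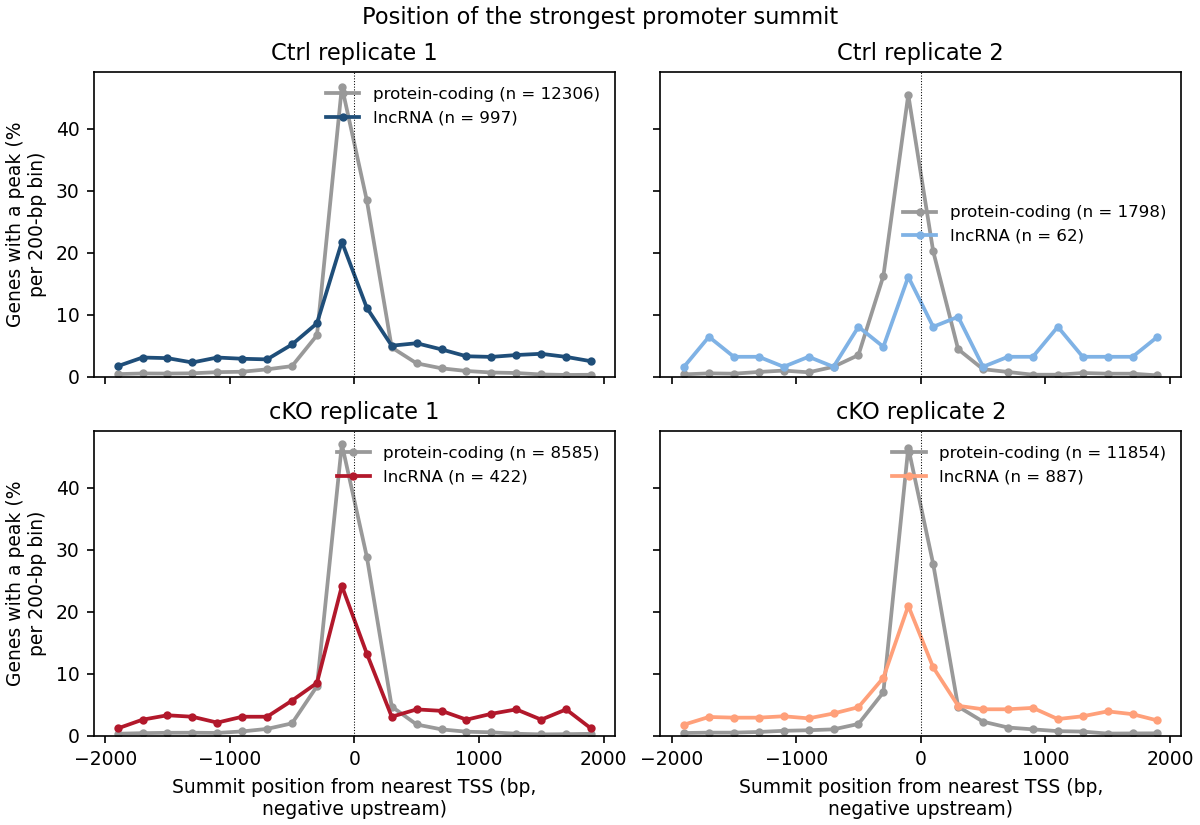
Position of the strongest promoter summit from the nearest TSS (x axis, bp, negative upstream) as the share of genes with a peak in each 200-bp bin (y axis, %), 1 panel per library, with lncRNAs in colour and protein-coding genes in grey. The bin just upstream of the TSS holds 21.8% of the 997 lncRNAs in Ctrl1, and the rest spread over the whole window.

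Base composition followed the same division. In 200-bp windows centred on the summit, members had a median of 52 to 52.5% GC and 4 to 5 CpG, close to all autosomal peaks (51 to 54% GC, 3 to 5 CpG) and below coding promoters (62 to 65% GC, 15 to 17 CpG). The windows of CGI members had 63.5 to 65% GC and 15 to 17 CpG. GGGCGG was found in 16.5, 27.1, 18.6 and 16% of member windows, in 55.9, 55.1, 57.7 and 55.6% of coding windows, and in 19.5, 18.2, 26.6 and 19.7% of the windows of all autosomal peaks. CAGATG ran the other way, in 19.2, 16.9, 18.9 and 21.3% of member windows, 6.79, 5.99, 6.71 and 7.14% of coding windows and 21, 12.3, 17.4 and 22.1% of all windows. The E-box occurred in 21.5, 16.3, 22.2 and 23.5% of the windows of members without a CGI and in 9.29, 18.8, 9.35 and 11.8% of those with one. The TATA box (TATAAA) was found in 6.57, 5.08, 5.46 and 5.85% of member windows, 2.69, 2.62, 2.34 and 2.72% of coding windows and 7.08, 8.75, 6.36 and 6.52% of all windows. Both strands were searched, each window counts once, and these matches are descriptions of sequence and not of bound factors.

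Genotype did not separate the libraries in any of 7 comparisons. Member promoters with a peak numbered 654.5 ± 328.8 in cKO and 529.5 ± 661.1 in Ctrl (mean ± SD, n = 2 each), so the difference of 125 did not exceed the SD of cKO or of Ctrl (p = 1 by a two-sided exact permutation test, adjusted p = 1). The difference was −342.5 without Ctrl2, −107.5 without cKO2 and 592.5 without Ctrl1, so its sign depended on which library was kept. Divided by the share of coding genes in the same library, the member share was 0.270, 0.115, 0.164 and 0.249, with the cKO pair inside the range of the Ctrl pair (difference 0.0141, exact permutation p = 1, adjusted p = 1). The difference was −0.0634 without Ctrl2. Of all autosomal peaks, 2.26, 0.976, 2.02 and 2.16% lay at member promoters (difference 0.477 percentage points, and −0.164 without Ctrl2, exact permutation p = 1). The share of member peaks in a CGI differed by −1.15 percentage points (exact permutation p = 0.667, adjusted p = 1), and by 3.30 without Ctrl2. Median scaled depth differed by 1.07, and by −1.74 without Ctrl2 (exact permutation p = 1 with all 4). Repeat-masked peaks made up 1.87, 36.5, 5.02 and 2.89% of the member peaks, against 0.272, 2.11, 0.338 and 0.340% of coding promoter peaks, higher in 4 of 4 libraries (exact sign-flip permutation p = 0.13, adjusted p = 0.146). Of all autosomal peaks, 4.88, 57.6, 13.4 and 6.58% were repeat-masked, so the member share was below that background in 4 of 4 libraries. Between genotypes the member share showed no separation (difference −15.2 percentage points, and 2.09 without Ctrl2, exact permutation p = 1 with all 4). With 2 libraries per group the smallest p possible is 0.33, and nothing states that the libraries came from separate animals, so a p here measures the spread between libraries only.

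To set lists of different length on a common scale, each gene was given a promoter percentile. It says what percent of coding genes had a weaker best promoter peak, or none, in that library, by −log10 p-value, and is 0 for a gene without a promoter peak. Its mean over all members was 8.88, 0.946, 4.89 and 8.35, a difference of 1.71 between cKO and Ctrl (exact permutation p = 1, adjusted p = 1) and −2.26 without Ctrl2. Since genes without a peak fill the bottom of the scale, the lowest percentile that a peak can have was 40.9 in Ctrl1, 91.4 in Ctrl2, 58.7 in cKO1 and 43.0 in cKO2. A member with a weak peak in all lists is therefore placed highest in Ctrl2 by construction, and higher in both cKO lists than in Ctrl1. This bears on every percentile below.

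In all, 1167 members (18.7%) had a promoter peak in at least 1 list, against 35% of all autosomal genes. 397 had one in 1 list, 374 in 2, 361 in 3 and 35 in all 4. The commonest combination was Ctrl1 with both cKO libraries (357 members), followed by Ctrl1 with cKO2 (353), Ctrl1 alone (245) and cKO2 alone (127). A CGI was present at 26.6% of the first of these and at 14.2, 13.1 and 6.30% of the next 3. A peak in all 4 lists was present for 35 members (0.560%), against 4.37% of all autosomal genes and 8.38% of protein-coding genes, and 18 of the 35 had a CGI. Without Ctrl2, 392 members had a peak in every list.

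**Figure D4:**
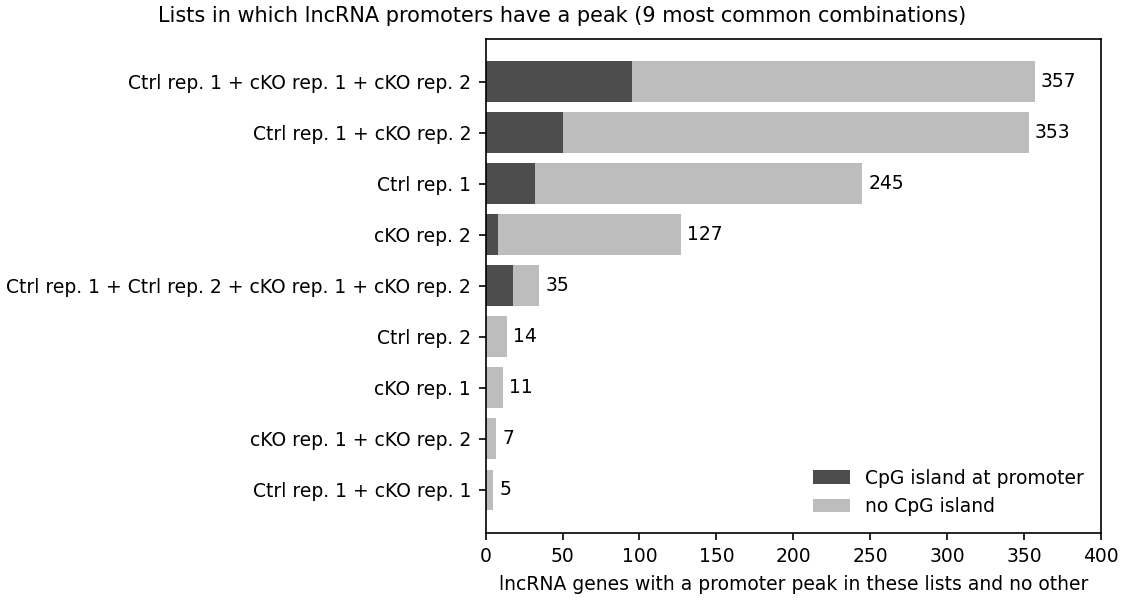
Number of lncRNA genes (x axis) with a promoter peak in exactly the lists named on the y axis, for the 9 commonest combinations, split by whether a CGI overlaps the promoter. The largest bars, 357, 353, 245 and 127, join or single out the 3 longer lists, and 7 genes had a peak in both cKO lists alone.

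Members were ranked by mean percentile among the 35 with a peak in all 4 lists, so their presence in every library is given by that choice. The top 3, Gm26917, AY036118 and Gm42418 (chromosome 17, between 39843013 and 39848788), shared 1 peak of 2639, 885, 2047 and 1409 fragments, at a percentile of 99.98 in 3 libraries and 99.99 in cKO1. This stretch of the assembly is known to contain a copy of the ribosomal RNA precursor unit, which the genome holds in many copies, so reads of other copies cannot be told apart from its own and these values are uncertain. Next came 4932412D23Rik (chromosome 16, 42725702 to 42875762, minus strand), with 218, 52, 123 and 251 fragments within 25 bp of a TSS and percentiles of 99.3, 99.9, 99.9 and 99.9. Gm6410 (chromosome 8, 4678462 to 4688494, plus strand) had 222, 40, 103 and 220 fragments, 547 to 607 bp upstream of its TSS, and percentiles of 99.7 to 99.8. For both, Ctrl2 had the fewest fragments, although that library had the greatest depth, and Ctrl1 and cKO2 were close to each other.

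Of the other members in this rank, Gm13569, Gm5165 and A330093E20Rik lacked a CGI. Gm13569 (chromosome 2, 62809187 to 62810698, plus strand, antisense within a coding gene) had 128, 22, 59 and 122 fragments 1539 to 1574 bp upstream of its TSS, so its peak is not at the annotated start. Gm5165 (chromosome 17, 17234872 to 17266063, plus strand) had 114, 16, 48 and 104 fragments 51 to 71 bp upstream. 1700113A16Rik (97.5, 97.6, 96.0 and 98.7), Gm26901 (98.8, 98.0, 96.6 and 96.1), Gm20732 (97.4, 97, 98.4 and 96.3) and Gm36445 (95, 97.8, 97.6 and 98.0) all had a CGI, with percentiles in that order. A330093E20Rik had percentiles of 91.8, 98.4, 98.7 and 95.5.

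Peaks restricted to the cKO pair of lists were found for 7 members (0.112%), against 0.115% of all autosomal genes, close to that background. Of the members with a peak in any list this was 0.60%, and of the coding genes with one 0.204%, so the comparison depends on the denominator, and it rests on 7 members. All 7 lacked a CGI. 1700049E15Rik had 17 and 19 fragments in cKO1 and cKO2, 676 and 695 bp upstream of its TSS. C230057A21Rik (chromosome 3, 8732870 to 8736360, minus strand) had 14 and 18, at 7 and 28 bp upstream. Gm15494, D030024E09Rik, 1700025H01Rik, Gm29927 and 4930555O08Rik had 9 to 13 fragments in cKO1 and 10 to 18 in cKO2, and the Gm15494 summits of the 2 libraries lay 731 bp apart. The median over members with a peak was 17 fragments in cKO1 and 19 in cKO2, and the lowest count at any summit in these lists was 9 and 8. 1700049E15Rik was thus at the median in both, and the other 6 were below it in both. In lists cut to equal length none of these 7 had a peak in any list, and 8 other members had the pattern. With the full lists, the count was 10 without Ctrl2, 364 without Ctrl1, 134 without cKO1 and 18 without cKO2.

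The reverse pattern, peaks restricted to the Ctrl pair, was found for 1 member (0.0160%), against 0.0293% of all autosomal genes. It was Gm15963 (chromosome 10, 93726726 to 93728207, minus strand), with 35 fragments in Ctrl2, at a summit inside the tandem array printed above, and 10 in Ctrl1, at a summit 210 bp away and outside the printed window. The count was 246 without Ctrl2, 15 without Ctrl1 and 2 without cKO2.

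For 215 members both cKO percentiles exceeded both Ctrl percentiles (3.44% of members), against 7.02% of all autosomal genes. Counted over genes with a peak in any list, the shares were 18.4% of members and 20.6% of coding genes. Of the 215, 214 had no peak in Ctrl2, so for them the comparison is with Ctrl1 alone. The lowest percentile that a peak can have was 40.9 in Ctrl1, 58.7 in cKO1 and 43.0 in cKO2. A weak peak is thus placed higher in both cKO lists than in Ctrl1 by construction, and the part of this in the count was not tested. In Ctrl1, 7 of the 215 had no peak, namely the members with peaks restricted to the cKO lists. In equal-size lists the count was 32. It was 229 without Ctrl2, 368 without Ctrl1 and 582 without cKO1. By the rule, which takes only members in at least 3 lists, the 6 with the largest difference were Gm11872, Gm46102, C030037F17Rik, Platr26, Gm31812 and Frmd8os. Neat1, which shares the peak of Frmd8os, had the same difference. All 6 had no peak in Ctrl2. Gm11872 had percentiles of 84.8, 94.1 and 95.2 in Ctrl1, cKO1 and cKO2, and scaled depths of 40.7, 22.7 and 56.5. Platr26 had percentiles of 66.7, 85.3 and 80.5 and scaled depths of 20.3, 14 and 27.1. On the scale of depth, cKO1 was thus below and cKO2 above Ctrl1 for both genes, and the groups overlapped.

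For 8 members both cKO percentiles were below both Ctrl percentiles (0.128%), against 0.915% of all autosomal genes, and all 8 had a peak in Ctrl2. Over genes with a peak in any list the shares were 0.686% of members and 2.86% of coding genes. AC125101.1 had percentiles of 78.5, 96.5, 73.1 and 76.6 with 45, 22, 18 and 44 fragments. Rab10os had 94.7, 91.4, 86.5 and 86.6 with 118, 16, 33 and 80 fragments, and scaled depths of 72.7, 4.62, 15.9 and 44.3. For Rab10os, Ctrl1 was the deepest and Ctrl2 the shallowest, so on scaled depth the cKO values lay between the Ctrl values. AC131712.1, Gm11527, 1700020I14Rik and D230017M19Rik completed the 6 named by the rule. With peaks limited to a −log10 q of at least 5, the count was 2, and the difference turned to higher in cKO for 5 of the 6 named members, AC125101.1 being the exception. For those 5 the Ctrl2 peak, of 13 to 17 fragments, was no longer in the list. The turn thus came from the loss of that peak and not from a change in the other libraries. The count was 437 without Ctrl2, 48 without Ctrl1 and 16 without cKO1.

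lncRNAs with a known role were taken from 5 lists of 154 genes, of which 45 were members. Of the rest, 33 had another gene type, 30 lay within 5 kb of a coding TSS, and 46 symbols had no autosomal gene in this annotation. The counts with a peak in at least 1 list were 9 of 9 nuclear and ubiquitous lncRNAs, 7 of 9 of neural development, 7 of 8 microRNA hosts, 3 of 5 imprinted lncRNAs and 3 of 15 of other tissues, against 18.7% of all members. In the same order, 8, 4, 5, 2 and 2 of the listed members had a CGI, against 5.17% of all members. Of all CGI members 62.8% had a peak in at least 1 list, so 18.7% is not a like background for lists rich in CGIs. Meg3 is in both the first and the imprinted list. The lists were chosen with earlier results of these data known and are described by counts only.

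**Figure D5:**
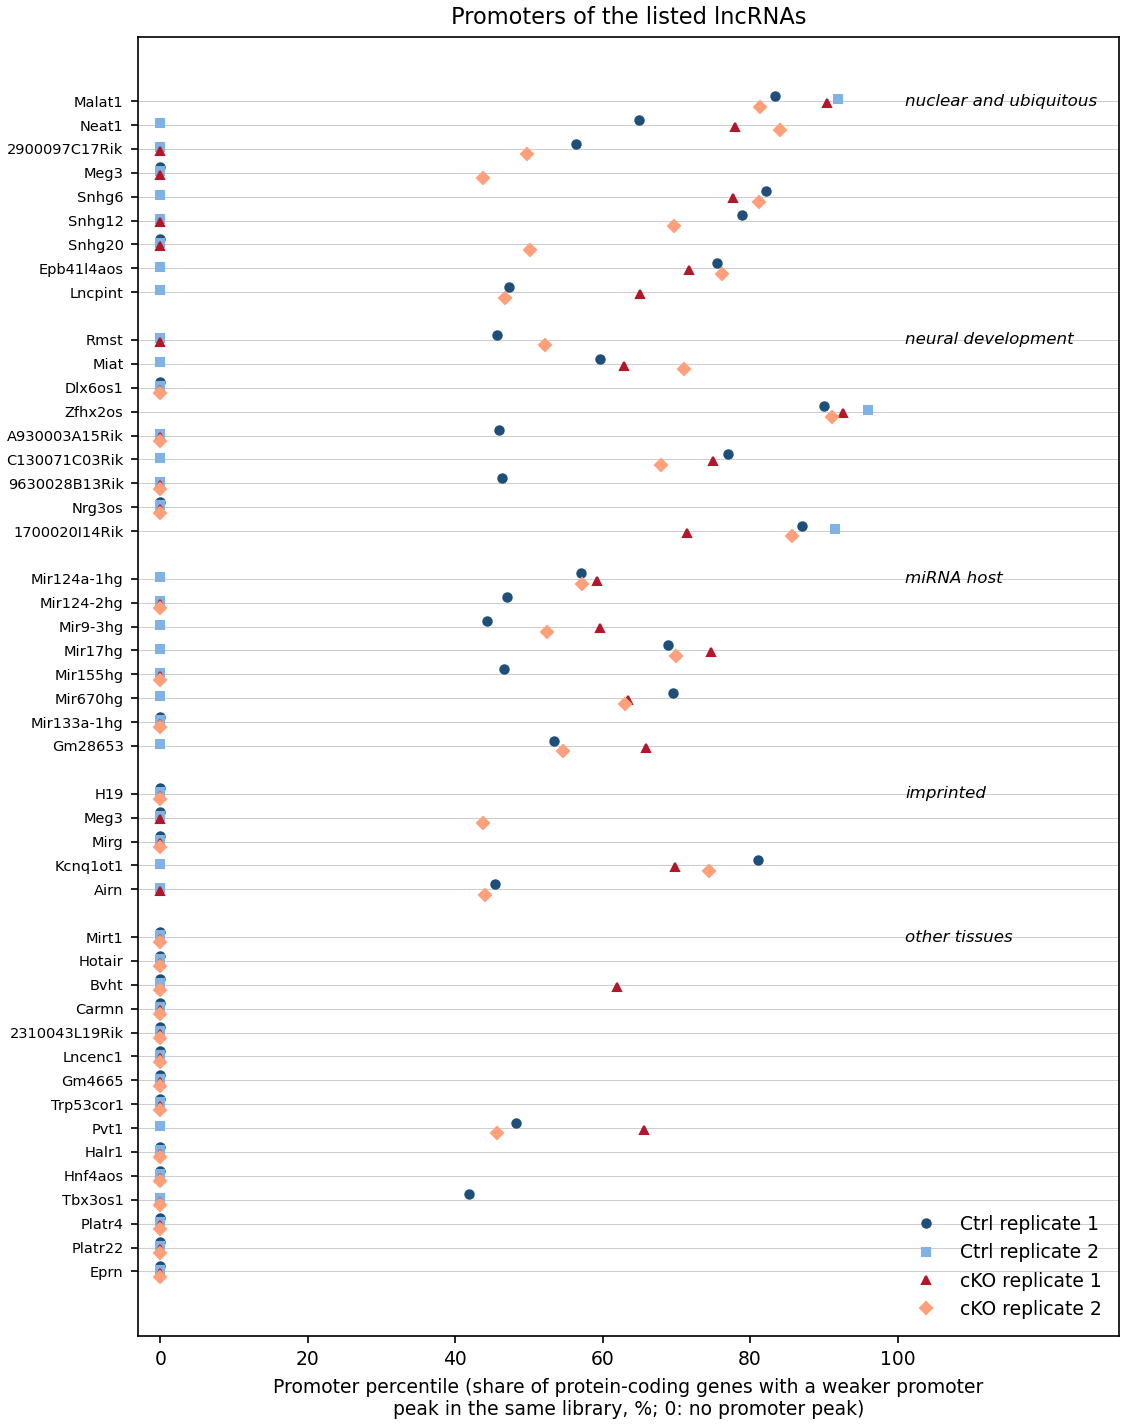
Promoter percentile (x axis, %, 0 for no promoter peak) of the 45 listed lncRNAs (y axis, grouped by list, with Meg3 shown in both of its lists), 1 symbol per library. Malat1, Zfhx2os and 1700020I14Rik have a peak in all 4 libraries, and most lncRNAs of other tissues stand at 0 in all 4, as do 5079 of all 6246 members.

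Among nuclear and ubiquitous lncRNAs, Malat1, an abundant RNA of nuclear speckles, had a peak in all 4 libraries, with 77, 17, 42 and 68 fragments, 937 to 976 bp upstream of its annotated TSS (gene at chromosome 19, 5795690 to 5802672, minus strand), and percentiles of 83.4, 92.0, 90.4 and 81.4. Neat1, the scaffold of paraspeckles, had 43, 29 and 73 fragments in Ctrl1, cKO1 and cKO2 and no peak in Ctrl2. Its peak, 1252 to 1333 bp upstream, is also the one assigned to the divergent gene Frmd8os, so these 2 genes are 1 observation. The small nucleolar RNA hosts Snhg6 (54, 22 and 47 fragments) and Epb41l4aos (40, 17 and 41) had a peak in the same 3 libraries. Snhg12 had 45 fragments in Ctrl1 and 30 in cKO2, and Snhg20 had 16 in cKO2 alone. Lncpint, a transcript of the p53 response, had 18, 15 and 16 in the 3 libraries other than Ctrl2, but at different sites, as the gene has 5 TSSs and the summits lay up to 129808 bp apart. 2900097C17Rik had 21 in Ctrl1 and 14 in cKO2. Of the 9 genes of this list, 8 had a CGI.

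In the list of neural development, Zfhx2os, antisense to the homeobox gene Zfhx2, had the strongest promoter. It had 119, 26, 63 and 124 fragments, 79 to 132 bp upstream of its TSS, and percentiles of 90.0, 96.0, 92.7 and 91.1. The cKO percentiles thus lay between those of Ctrl1 and Ctrl2. With Ctrl2 left out, both percentiles lay above that of Ctrl1. Scaled depths were 73.4, 7.51, 30.4 and 68.6, so on that scale both cKO values lay below Ctrl1 and above Ctrl2. Rmst, an RNA that binds SOX2, had 14 fragments in Ctrl1 and 17 in cKO2. Miat, an RNA of neurons and retina also called Gomafu, had 25, 13 and 36 fragments in the 3 libraries other than Ctrl2, 510 to 651 bp downstream of the nearest TSS. C130071C03Rik, a host of mir-9, had 67, 26 and 48 in the same libraries. Dlx6os1, the Evf2 RNA of ventral forebrain interneurons, and Nrg3os had no peak in any list. 1700020I14Rik had 62, 13, 17 and 57 fragments within 55 bp of a TSS, and A930003A15Rik and 9630028B13Rik had 12 and 16 in Ctrl1 alone. Dlx1 and Dlx2 had a promoter peak in Ctrl1 and Dlx2 in cKO2.

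Among microRNA hosts, Mir17hg, which carries the miR-17 cluster of proliferating cells, had 43, 23 and 39 fragments in Ctrl1, cKO1 and cKO2, with percentiles of 68.9, 74.7 and 69.9, and its summits lay 668 to 750 bp upstream of the TSS. Mir9-3hg, a host of the neural progenitor microRNA miR-9, had 23, 16 and 28. Mir124a-1hg, a host of the neuronal miR-124, had 33, 14 and 29 at 1641 to 1768 bp downstream of its TSS, and Mir124-2hg 15 in Ctrl1 alone. Mir670hg had 45, 15 and 33. Gm28653, whose gene spans the muscle microRNAs Mir206 and Mir133b, had 17, 14 and 17. Mir155hg, whose product is known from activated immune cells, had 13 fragments in Ctrl1, and Mir133a-1hg, a host of another muscle microRNA, had no peak in any list. None of these 8 hosts had a peak in Ctrl2.

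Of the imprinted lncRNAs, Kcnq1ot1, made from the paternal allele inside Kcnq1 and known to silence its neighbours, had 52, 16 and 41 fragments in the 3 libraries other than Ctrl2, 9 to 125 bp upstream of the TSS (gene at chromosome 7, 143203458 to 143296549, minus strand), and percentiles of 81.0, 69.9 and 74.4. Both cKO percentiles were below that of Ctrl1 and above the 0 of Ctrl2. Airn, which silences Igf2r, had 12 fragments in Ctrl1 and 10 in cKO2, both 18 bp downstream of its TSS. Meg3, made from the maternal allele of the Dlk1 region, had 12 in cKO2 alone, although it is abundant in neurons. H19 and Mirg had no peak in any list. Peaks called on reads of both alleles do not tell the parental copies apart.

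Of 15 lncRNAs of other tissues, 12 had no peak in any list, close to the background of all members (5079 of 6246). Among the 12 were Hotair and Halr1 of Hox clusters, the cardiac and smooth muscle RNA Carmn, Hnf4aos, Trp53cor1 and the stem cell RNAs Lncenc1, Platr4 and Platr22. Pvt1, next to Myc and expressed in many dividing cells, had 15, 14 and 11 fragments in Ctrl1, cKO1 and cKO2. Tbx3os1 had 9 in Ctrl1 and Bvht 12 in cKO1. An absent peak says that the threshold of that list was not passed, which at 7 to 12 fragments for the weakest summits leaves lower accessibility undetected, and in whole tissue fewer cells with an open promoter and less open promoters per cell cannot be told apart.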

How the data were processed

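ATAC-seq peak lists of 4 libraries were used, grouped by the sample titles. The authors' steps, from their methods and the submitters' processing notes, were trimming (Cutadapt), Bowtie2 alignment to mm10, removal of blacklisted, mitochondrial and duplicate reads (SAMtools, Picard), the Tn5 offset, and a MACS2 2.2.7.1 call for each library on its own. Removing reads of blacklisted regions and duplicates can lower depth at multi-copy promoters. The deposited lists give a display score (not used), a fold ratio, a −log10 p-value, a −log10 q-value and a summit offset. Whole fragments were recovered from the deposited fold and −log10 p-value, within 0.01 for at least 99.9% of the peaks of each list. Depth was 1.62 to 3.46 fragments per base of the MACS2 mouse genome size, and a median of 18 to 20 fragments at a summit limits the precision of single peaks.

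GENCODE M21 basic transcripts gave TSSs. The 16471 autosomal CGIs are stretches of 200 bp or more with 50% GC or more and a CpG ratio (observed to expected) from 0.6 up, with soft-masked bases counted as neither C nor G. A peak overlapped a CGI by at least 1 bp and was repeat-masked with at least 50% of its bases soft-masked. Groups were compared with exact two-sided permutation tests over 6 assignments, and members with protein-coding genes by exact sign-flip tests over 4 libraries, each family of 7 adjusted by Benjamini-Hochberg. Shares have Wilson intervals.

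Named members were the 12 with the highest mean percentile among those in all 4 lists, up to 8 found in the lists of 1 genotype alone, up to 6 with the largest percentile difference in each direction among those in at least 3 lists, and all list members. The members and lists were chosen with earlier results of these data known, and 4 list genes (Gm28653, Lncpint, Mirt1 and Mirt2) were moved to another list after their values were seen. Alternatives were a 1 kb window, any overlap, equal-size lists of 7037 peaks, a −log10 q of at least 5, no repeat-masked peaks, 10 kb from coding TSSs, lincRNA alone, unshared promoters, stricter CGIs, the replicate block and each library left out. Analyses used Python 3.11.15 with numpy 2.4.6, pandas 2.3.3 and scipy 1.17.1, and the functions were tested on simulated data.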

Additional observations from a re-analysis of the deposited data

How the results depend on the processing

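The 6 differences between lncRNA and coding promoters, and that between CGI members and others, kept their direction under the alternatives run, except that peak width was 7.13 bp greater for members in equal-size lists. This refers to means over libraries: scaled depth was lower in 3 of 4 libraries, not 4, with a −log10 q of at least 5 and without repeat-masked peaks (p = 0.25 by exact sign-flip permutation, means −5.84 and −6.42). Without each library in turn they ranged from −40.2 to −28.3 percentage points (with a peak), −64.0 to −63.4 (in a CGI), −8.56 to −4.64 (scaled depth), 347 to 443 bp (summit distance), −163 to −51.7 bp (width), 2.94 to 13.9 percentage points (repeat-masked) and 25.2 to 39.2 (CGI against other members). Sizes moved by over 1.5 times for the share with a peak (−18.6 percentage points), scaled depth (−3.0), summit distance (271.5 bp) and CGI against other members (11.7) in equal-size lists, for summit distance (128 bp) with a 1 kb window, and for width (−26.1 bp) at a −log10 q of at least 5. Without Ctrl2 they also did so for repeat-masked peaks (from 10.8 to 2.94 percentage points) and width (−163 bp). Width moved as much without Ctrl1 (−51.7 bp).

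The 7 genotype differences changed sign without Ctrl2, and 5 of them also without cKO2. Their ranges over the libraries left out were −342.5 to 592.5 for member promoters with a peak, −0.0634 to 0.0916 for the member share over the coding share, −0.164 to 1.12 for the percent of peaks at member promoters, −5.59 to 3.30 for the percent in a CGI, −1.74 to 3.87 for scaled depth, −2.26 to 5.67 for the mean percentile and −32.5 to 2.09 for the percent repeat-masked. In equal-size lists the member share over the coding share differed by −0.0150 and the percent in a CGI by 2.02. The causes were not tested.

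The replicate numbers are not stated to pair libraries, and deviations of same-numbered libraries correlated at 0.0614 over 1167 members. With the replicate block the differences were the same (125 promoters, for example) and all p were 1. The comprehensive transcript set, added after the data were seen, gave 5808 members and kept all 14 directions.

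Counts of members moved more, and their recounts were also added after the data were seen. With a −log10 q of at least 5, 4 members had a peak in the cKO lists alone, 0 in the Ctrl lists alone, 2 a lower percentile in cKO and 16 a peak in all 4 lists, and in equal-size lists 32 had a higher percentile in cKO. Without each library the ranges were 10 to 364, 1 to 246, 11 to 437 (lower), 35 to 392 (every list) and 229 to 582 (higher). At that q the percentile difference turned to 35.2 for AC131712.1, 35.7 for Gm11527, 35.1 for 1700020I14Rik, 39.2 for Rab10os and 39.8 for D230017M19Rik. Each of these members had lost its Ctrl2 peak at that threshold. The weakest summits in the lists had 7 to 12 fragments, and weaker sites are not in them.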

Other observations

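Among listed lncRNAs that the distance or type rule leaves out, several promoters stood high in every library. Gas5, a growth arrest RNA whose TSS lies 80 bp from a coding one, had percentiles of 97.9, 95.9, 97.7 and 98.8 (Ctrl1, Ctrl2, cKO1, cKO2). Snhg8, 61420 bp from a coding TSS and left out by its type, had 92.8, 95.2, 96.3 and 91.6. Mir22hg had 94.1, 94.6, 94.8 and 96.9, and Mir99ahg 85.6, 96.2, 89.3 and 89.6. Emx2os, which lies 263 bp from a TSS of a coding gene and is antisense to the telencephalic homeobox gene Emx2, had 68.7, 0, 76.5 and 69.3. Pantr1, beside the neural gene Pou3f3, had 85.6, 0, 89.0 and 92.5. The Hox lncRNAs Hottip, Hoxa11os, Hoxaas2, Hoxaas3 and Hoxb5os had no promoter peak in any list, whereas Hotairm1 had one in Ctrl1 (41.8). Snhg14, the long transcript of the imprinted Ube3a region, had 42.8, 99.1, 61.6 and 48.1, with its highest value in Ctrl2.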
